A study of Mus musculus with 4 samples.

Results

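The CC chemokines described here are 10 mouse genes, *Ccl2*, *Ccl3*, *Ccl4*, *Ccl5*, *Ccl7*, *Ccl8*, *Ccl11*, *Ccl20*, *Ccl22* and *Ccl28*, followed in the colon of mice with and without a carcinogen and in 2 labeled genotypes of *Pla2g3*, the gene for a secreted phospholipase A2. The members were the probes whose gene name on the array was one of these symbols. All 10 genes had a probe, and each had 1 probe, so that 10 of the 39423 probes and 10 of the 22259 genes on the array are described. *Ccl2* was printed as 10 spots and the other 9 genes as 1 spot each, 19 spots in all.

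Male mice in 4 groups were compared, with 1 array per group: *Pla2g3*+/+ with vehicle, *Pla2g3*-/- with vehicle, *Pla2g3*+/+ after azoxymethane (AOM) and *Pla2g3*-/- after AOM. The mice were littermates on the B6.129 background at backcross generation 3 and were 42 weeks old. AOM, a procarcinogen that induces colon tumors in rodents, was injected intraperitoneally at 10 mg/kg weekly over 6 weeks, colons were collected 28 weeks after the injections ended, and vehicle was saline. RNA of the whole descending colon was pooled within a group from 3 to 5 mice, and 27.7 ng of each pool was labeled with a single dye and hybridized. Because each pool is 1 sample, no fold change given here has a replicate check or a p-value, and differences between mice of a group cannot be seen.

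CC chemokines are small secreted proteins with adjacent cysteines near the amino terminus that bind to G protein-coupled receptors on leukocytes and direct their migration along a gradient. Inflammatory members such as CCL2, CCL3, CCL4, CCL5 and CCL7 recruit monocytes, macrophages, T cells and granulocytes and are made by stromal, epithelial and immune cells after cytokine or microbial signals. Homeostatic mucosal members work differently: CCL28 is made by colon epithelium and attracts IgA-producing plasma cells, and CCL20 attracts CCR6-bearing dendritic cells and lymphocytes to the epithelium over lymphoid follicles.

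The values rest on the probes, which are 60 bases long. For the members that moved most, and for the members without a signal, the last 30 bases of the probe as deposited are shown, 5′ to 3′, because they set what each value measures.
Ccl2: gtgtgactcggactgtgatgccttaattaa
Ccl7: cacggtcctaagggataggagctgtctgta
Ccl3: tgtttataccagagaagtaataaatatgcc
Ccl4: gtctcccatggagatggtccaccattgctg
Ccl5: acccaagaaatcagcatttcattgaaattt
Ccl28: aagtcacccaggttaatgtgtaagcctttt
Ccl20: aatatattgaaaataaaagaattgaaaggt
Ccl22: aggaaagaggataaatatatgtgaggccaa
Over the whole probes, no stretch longer than 8 bases was shared by any of the 45 pairs of members. This compares probes with each other, and whether a probe also binds the transcript of another gene was not tested. The probes of *Ccl20* and *Ccl22* were poor in G and C. *Ccl20* had 16.7% G or C, a value that only 39 of all probes (0.0989%) had or went below, and *Ccl22* had 26.7%, against a median of 41.7% over the array. How far this composition lowered their signals was not tested.

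Of the 10 members, 7 lie on chromosome 11 in a pair of gene clusters. In mm9 coordinates of the array design, the probes lie from 81850650 to 81850709 for *Ccl2*, 81860656 to 81860715 for *Ccl7*, 81876072 to 81876131 for *Ccl11* and 81930108 to 81930167 for *Ccl8*. The other cluster holds *Ccl5* (83339296 to 83339355), *Ccl3* (83461358 to 83461417) and *Ccl4* (83478052 to 83478111). The *Ccl20* probe lies on chromosome 1 (83115682 to 83115741) and the *Ccl22* probe on chromosome 8 (97274709 to 97274768), and *Ccl28* is placed by the design on an unlocalized piece of its chromosome.

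Signals are given as the intensity of the scanner software, corrected for background, divided by the 75th percentile of the array. This relative signal compares a probe between arrays and does not compare genes. That percentile was 646 and 649.8 intensity units on the vehicle arrays, *Pla2g3*+/+ first, and 1309 and 1169 on the AOM arrays. Of 43020 spots per array, 64.8% to 69.4% passed as well above background and 0 were saturated. Repeated spots of a probe had a median SD of 0.066 to 0.079 log2 units within an array. The log2 ratio of a pair of single spots therefore carried an SD of 0.11, which leaves out the spread between mice. A gene was called higher or lower past 2-fold. Where a probe was well above background on only 1 array of a comparison, the dim value was replaced by the array's lowest well-detected signal, or kept if it was higher than that, and the change is written as "at least". Such a bound holds for the background correction of the scanner software, and other corrections can give smaller changes. KO/WT denotes the array labeled *Pla2g3*-/- over that labeled *Pla2g3*+/+.

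*Pla2g3* itself went against the genotype labels. Its brightest probe (chromosome 11 of mm9, 3394109 to 3394168) had intensities of 343 and 426 on the vehicle arrays labeled *Pla2g3*+/+ and *Pla2g3*-/-, and of 304 and 1632 on the AOM arrays. It was therefore 1.23-fold and 6.01-fold higher where the label says that the gene is deleted. Its other probes were dimmer and went the same way. They were 1.06-fold and at least 2.31-fold higher with vehicle, and 6.66-fold and 2.76-fold higher after AOM. The sources used here do not say whether any of these probes lies in the deleted part, and all directions follow the labels. The tissue label fitted the colon, with 10 of 10 colonic epithelium genes well above background on all 4 arrays. The arrays nevertheless differed in the signals of tissue marker genes. On the *Pla2g3*+/+ AOM array, 9 of 9 smooth muscle genes were lower than with vehicle (summed relative signals of 515 and 31.2), and 7 of 7 Wnt targets of colon tumors were higher (5.22 and 54.9). On the vehicle array labeled *Pla2g3*-/-, 8 of 8 genes of pancreatic acinar cells were higher than on the *Pla2g3*+/+ array. Over all genes, 22.2% were lower and 15.0% higher with AOM in *Pla2g3*+/+, and 1.89% were higher in KO/WT with vehicle.

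Across the 4 arrays, 6 members were well above background everywhere, *Ccl3* and *Ccl4* on 3 arrays, and *Ccl20* and *Ccl22* on none. The members fell into unlike patterns. *Ccl2*, *Ccl3*, *Ccl4* and *Ccl7* were highest on the *Pla2g3*+/+ AOM array, *Ccl28* was lowest there, *Ccl5* was low on both AOM arrays, and *Ccl8* and *Ccl11* varied least of the 8 members with a signal.

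**Figure D1:**
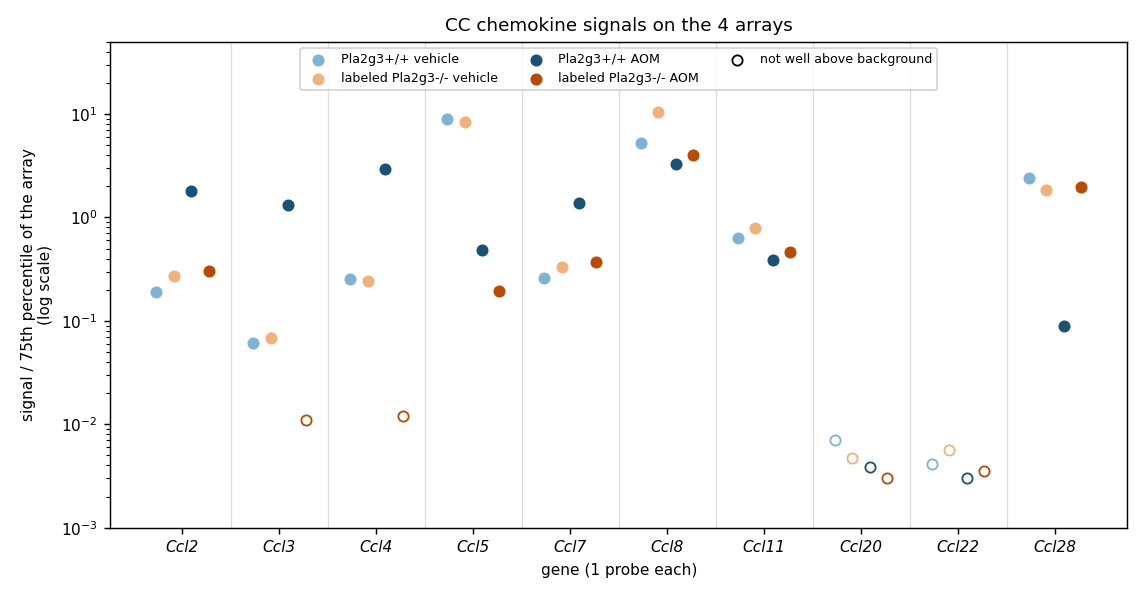
Relative signal (intensity over the 75th percentile of the array, log scale) of the 10 CC chemokine genes on the 4 arrays, 1 point per array. Filled points were well above background and carry the error of the scanner software, mostly smaller than the point; open points were not. *Ccl2*, *Ccl3*, *Ccl4* and *Ccl7* stand highest after AOM in *Pla2g3*+/+, and *Ccl28* lowest.

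*Ccl2* and *Ccl7* encode monocyte chemoattractants that act through CCR2. The relative signal of *Ccl2* was 0.190 with vehicle and 1.80 after AOM in *Pla2g3*+/+, and 0.274 and 0.304 in the pool labeled *Pla2g3*-/-. The *Pla2g3*+/+ AOM array alone was high, and the other 3 lay close together. *Ccl2* rose 9.48-fold (log2 3.24) with AOM in *Pla2g3*+/+ and 1.11-fold in the pool labeled *Pla2g3*-/-, and after AOM it was 5.93-fold lower in the latter. Its 10 spots give the error of the array. In *Pla2g3*+/+ they ran from 0.170 to 0.210 with vehicle and from 1.68 to 1.94 after AOM, with SDs of 0.108 and 0.066 log2 units. In the pool labeled *Pla2g3*-/- they ran from 0.261 to 0.294 and from 0.277 to 0.324, with SDs of 0.050 and 0.064. As relative signals, the spots of the *Pla2g3*+/+ AOM array thus lay apart from all others. Those of the vehicle arrays did not overlap each other, and those of the pair of arrays labeled *Pla2g3*-/- overlapped. That overlap depended on the scaling between arrays. In intensity, the spots labeled *Pla2g3*-/- ran from 169 to 191 with vehicle and from 324 to 379 after AOM, without overlap. The log2 AOM/vehicle ratio in that pool was 0.15, or 0.996 without scaling.

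**Figure D2:**
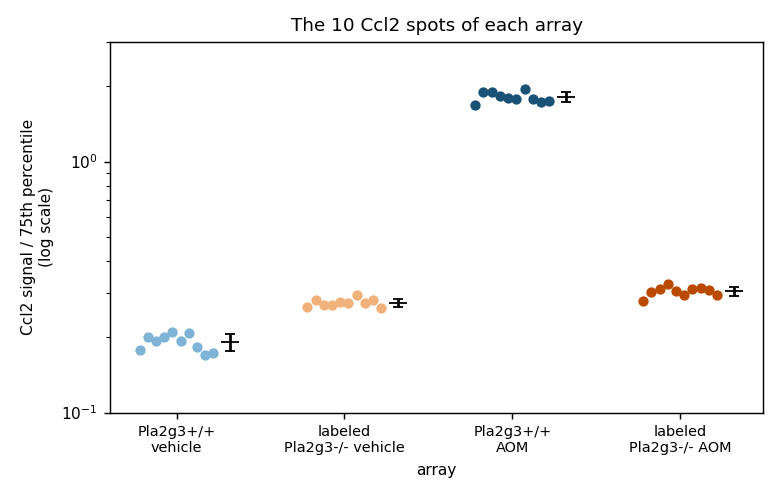
Relative signal (log scale) of each of the 10 *Ccl2* spots on each array, with the mean and SD of the spots beside them in black. The spots measure repeatability within an array and not the spread between mice; those of the *Pla2g3*+/+ AOM array run from 1.68 to 1.94 and all others stay at or under 0.324.

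*Ccl7*, the neighbor of *Ccl2*, showed the same order with a smaller range. Its relative signal was 0.258 and 0.331 with vehicle and 1.37 and 0.375 after AOM, in *Pla2g3*+/+ and the pool labeled *Pla2g3*-/-. AOM raised it 5.32-fold in *Pla2g3*+/+ and 1.13-fold in the other pool, and after AOM it was 3.65-fold lower in the pool labeled *Pla2g3*-/-. With vehicle, *Ccl2* was 1.44-fold and *Ccl7* 1.28-fold higher in that pool, under the 2-fold threshold.

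*Ccl3* and *Ccl4* encode the macrophage inflammatory proteins MIP-1α and MIP-1β, made by activated macrophages, neutrophils and lymphocytes. The relative signal of *Ccl3* was 0.0615 and 0.0687 with vehicle and 1.32 in *Pla2g3*+/+ after AOM, whereas the AOM array labeled *Pla2g3*-/- gave 0.0110, not well above background. In intensity these were 39.7, 44.6, 1725 and 12.8. The AOM arrays thus held both the highest and the lowest *Ccl3* signal. It rose 21.4-fold with AOM in *Pla2g3*+/+ and was at least 4.69-fold lower after AOM than with vehicle in the pool labeled *Pla2g3*-/-. Between the AOM arrays it was at least 90.0-fold lower in the latter pool. With normexp and quantile normalization, an alternative background model that lifts dim signals by an offset, both of these changes were smaller. The fall with AOM in that pool was under 2-fold (log2 ratio -0.65, beside a bound of -2.23). Between the AOM arrays the log2 ratio was -3.55, beside a bound of -6.49.

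*Ccl4* differed most of all members. Its relative signal was 0.252 and 0.242 with vehicle and 2.96 in *Pla2g3*+/+ after AOM, and 0.0121 in the pool labeled *Pla2g3*-/- after AOM, again not well above background (intensities of 162, 157, 3881 and 14.1). The vehicle arrays were alike, at 1.04-fold, and the AOM arrays lay on either side of them. AOM raised *Ccl4* 11.8-fold in *Pla2g3*+/+, lowered it at least 16.5-fold in the pool labeled *Pla2g3*-/-, and left it at least 203-fold lower there than in *Pla2g3*+/+. With normexp and quantile normalization, the fall with AOM in the pool labeled *Pla2g3*-/- was smaller, at a log2 ratio of -1.72 beside a bound of -4.05. Between the AOM arrays the log2 ratio was -4.80, beside a bound of -7.66. The scanner software gave these 2 dim signals an error of 35.5% and 30.3%, against 10.0% to 12.8% for member signals above background.

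*Ccl5* encodes RANTES, a chemoattractant for T cells, monocytes and eosinophils that is itself made by activated T cells and NK cells. Its relative signal was 8.997 and 8.35 with vehicle and 0.485 and 0.196 after AOM, in *Pla2g3*+/+ and the pool labeled *Pla2g3*-/-. Both AOM arrays were low, the reverse of *Ccl2*, *Ccl3*, *Ccl4* and *Ccl7* in *Pla2g3*+/+. *Ccl5* fell 18.5-fold with AOM in *Pla2g3*+/+ and 42.5-fold in the pool labeled *Pla2g3*-/-, where 39 of 16734 genes had a lower log2 ratio. After AOM it was 2.47-fold lower in the pool labeled *Pla2g3*-/-, but a log2 ratio of -0.88, under 2-fold, remained with normexp and quantile normalization.

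The T cell list was measured on the same arrays. Its summed relative signal over 9 genes was 6.61 and 6.40 with vehicle and 4.77 and 2.22 after AOM, in the same order. With AOM, 1 of the 9 was past 2-fold lower in *Pla2g3*+/+, where 22.2% of all genes were. The median log2 ratio of the 9 was -0.70, or 0.32 without scaling. In the pool labeled *Pla2g3*-/-, 8 of the 9 were lower, where 14.8% of all genes were (median of the 9 -1.77, or -0.92 without scaling). *Cd8a* and *Cd8b1*, which mark cytotoxic T cells, were not well above background on the AOM array labeled *Pla2g3*-/- and were on the other 3. The part of T cell number in the *Ccl5* values was not tested, and in bulk tissue fewer cells of a type and less RNA per cell cannot be told apart.

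*Ccl8* and *Ccl11* changed least of the members with a signal. *Ccl8*, which in the mouse acts through CCR8 and is made by tissue macrophages, had relative signals of 5.26 and 10.5 with vehicle and 3.26 and 3.98 after AOM. The vehicle array labeled *Pla2g3*-/- was high and the others were closer together. This was a 1.99-fold difference with vehicle, just under the threshold, and it passed 2-fold without scaling and with scaling by the median, at a log2 ratio of up to 1.02. *Ccl8* was 2.63-fold lower after AOM than with vehicle in the pool labeled *Pla2g3*-/-, and within 2-fold without scaling (log2 ratio -0.55). In *Pla2g3*+/+ it was 1.61-fold lower with AOM, a direction that turned without scaling (log2 ratio 0.33).

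*Ccl11* encodes eotaxin-1, which attracts eosinophils through CCR3 and recruits them to the healthy gut. Its relative signal was 0.633 and 0.795 with vehicle and 0.391 and 0.462 after AOM. The 4 values spanned 1.02 log2 units, the narrowest range among members well above background on all arrays. No comparison passed 2-fold. *Ccl11* was 1.62-fold and 1.72-fold lower with AOM in *Pla2g3*+/+ and the pool labeled *Pla2g3*-/-, and without scaling both directions turned (log2 ratios of 0.33 and 0.07). Of 4 eosinophil genes, *Epx* was below background on all arrays, and the summed relative signals were 0.437, 0.353, 0.437 and 0.120 in the order used above.

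*Ccl28*, the epithelial chemokine of the colon, ran opposite to *Ccl2*, *Ccl3*, *Ccl4* and *Ccl7* in *Pla2g3*+/+. Its relative signal was 2.41 and 1.83 with vehicle, 0.0888 in *Pla2g3*+/+ after AOM and 1.98 in the pool labeled *Pla2g3*-/- after AOM, with intensities of 1558, 1192, 116 and 2319. The *Pla2g3*+/+ AOM array alone was low. *Ccl28* fell 27.2-fold with AOM in *Pla2g3*+/+, changed 1.08-fold in the pool labeled *Pla2g3*-/-, and after AOM was 22.3-fold higher there than in *Pla2g3*+/+. Of 17170 genes, 97 had a higher KO/WT ratio after AOM, and of 17311, 137 had a lower AOM/vehicle ratio in *Pla2g3*+/+.

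Epithelial and smooth muscle genes moved on that array too. With AOM in *Pla2g3*+/+, 5 of 10 colonic epithelium genes were past 2-fold lower and 0 higher (1 higher without scaling). Over all genes, 22.2% were lower and 15.0% higher (7.03% and 44.6% without scaling). The summed relative signals of the 10 were 725 and 787 with vehicle and 277 and 636 after AOM. The smooth muscle sum was 515, 540, 31.2 and 496. All 9 genes were higher in KO/WT after AOM, where 15.1% of all genes were. Their median log2 ratio was 4.54, beside 4.48 for *Ccl28*. B and plasma cell genes, the cells that CCL28 attracts, did not follow *Ccl28*: their sum was 72.8, 70.0, 43.6 and 8.68, lowest in the pool labeled *Pla2g3*-/- after AOM, where *Ccl28* was near its vehicle level and *Ms4a1* was not above background. With AOM in *Pla2g3*+/+, 4 of 7 of these genes were past 2-fold lower, beside 22.2% of all genes. Without scaling 1 was lower and 1 higher, beside 7.03% and 44.6% of all genes. The part of tissue content in the *Ccl28* values was not tested.

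*Ccl20*, the ligand of CCR6, and *Ccl22*, a CCR4 ligand that draws regulatory T cells, were not well above background on any array. Their intensities were 4.54, 3.07, 5.07 and 3.58 for *Ccl20* and 2.69, 3.66, 3.93 and 4.13 for *Ccl22*, under the lowest signals that were well above background (10.7 to 17.1). No fold change was given for either, and a change of these genes was not detectable on these arrays.

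**Figure D3:**
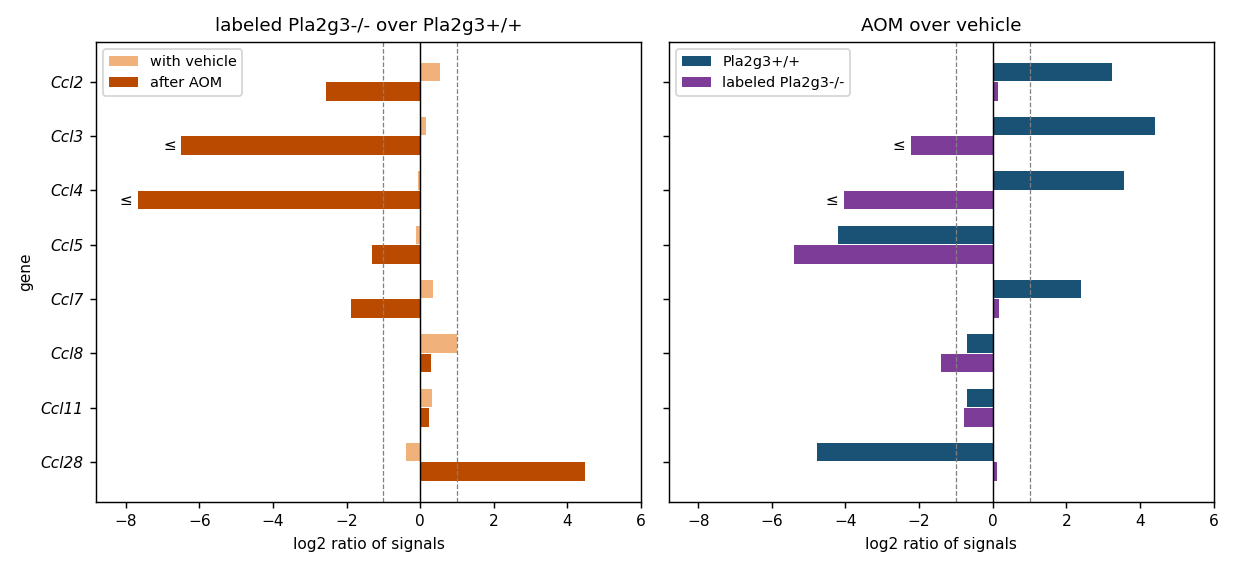
Log2 ratios of the 8 CC chemokine genes with a value, as KO/WT with vehicle and after AOM (left) and as AOM/vehicle in each genotype (right); dashed lines mark 2-fold and "≤" a ratio at or under the bar's end. With vehicle all bars stay within 2-fold; after AOM *Ccl4* reaches -7.66 and *Ccl28* 4.48. Comparisons share arrays and are not independent.

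The comparison of the vehicle arrays had the fewest members past 2-fold. Of the 8 members with a KO/WT value with vehicle, 0 were past 2-fold, against 1.89% higher and 1.3% lower, 3.19% in all, of the 16550 genes with a value. Their log2 ratios ran from -0.40 for *Ccl28* to 0.99 for *Ccl8*, with a median of 0.24 beside -0.02 over all genes. *Ccl4* (-0.06) and *Ccl5* (-0.11) differed by no more than the spot-to-spot spread of a ratio. After AOM, 1 member, *Ccl28*, was past 2-fold higher in the pool labeled *Pla2g3*-/-, and 5, *Ccl2*, *Ccl3*, *Ccl4*, *Ccl5* and *Ccl7*, were lower, where 15.1% of 17170 genes were higher and 12.8% lower, 27.9% in all. The median over the 8 was -1.59 beside 0.03 over all genes. *Ccl8* and *Ccl11* stayed within 2-fold, at log2 ratios of 0.29 and 0.24. With normexp and quantile normalization the log2 ratios shrank to -2.17 for *Ccl2*, -3.55 for *Ccl3*, -4.80 for *Ccl4*, -1.50 for *Ccl7* and 3.30 for *Ccl28*, all still past 2-fold.

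The change of KO/WT from vehicle to AOM was described by the difference of the log2 ratios. It was -3.09 for *Ccl2*, -2.23 for *Ccl7*, -1.20 for *Ccl5*, -0.70 for *Ccl8* and -0.09 for *Ccl11*, and 4.88 for *Ccl28*. For *Ccl3* and *Ccl4* it was -6.65 and -7.61 or lower, by bounds that hold for the scanner software's background correction only. With 1 array per group these differences were not tested.

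With AOM in *Pla2g3*+/+, 4 members, *Ccl2*, *Ccl3*, *Ccl4* and *Ccl7*, were past 2-fold higher and 2, *Ccl5* and *Ccl28*, lower than with vehicle. Over all 17311 genes with a value, 15.0% were higher and 22.2% lower (37.2% in all). Without scaling between arrays these shares became 44.6% and 7.03%, and with normexp and quantile normalization 10.2% and 9.64%. The member counts stayed at 4 and 2 under each of these. The median over the members was 0.86 beside -0.16 over all genes. In the pool labeled *Pla2g3*-/-, 0 members were higher and 4, *Ccl3*, *Ccl4*, *Ccl5* and *Ccl8*, lower with AOM, beside 9.47% and 14.8% of 16734 genes (24.3% in all). The shares were 38.1% and 3.68% without scaling and 5.35% and 5.08% with normexp and quantile normalization. *Ccl2*, *Ccl7* and *Ccl28* were at log2 ratios of 0.15, 0.18 and 0.11. Without scaling they were at 0.996, 1.03 and 0.96, and *Ccl7* passed 2-fold.

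On chromosome 11, neighbors did not all move alike. *Ccl2* and *Ccl7* rose with AOM in *Pla2g3*+/+, but *Ccl11*, with its probe 25.4 kb from that of *Ccl2*, and *Ccl8*, at 79.5 kb, did not. *Ccl12*, which lies between them and encodes another CCR2 ligand, had a log2 ratio of 0.42. In the other cluster, *Ccl3* and *Ccl4* rose by log2 ratios of 4.42 and 3.56, whereas *Ccl5*, *Ccl9* and *Ccl6* fell by 4.21, 2.37 and 3.26. In the pool labeled *Pla2g3*-/-, *Ccl9* and *Ccl6* fell by 2.51 each.

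**Figure D4:**
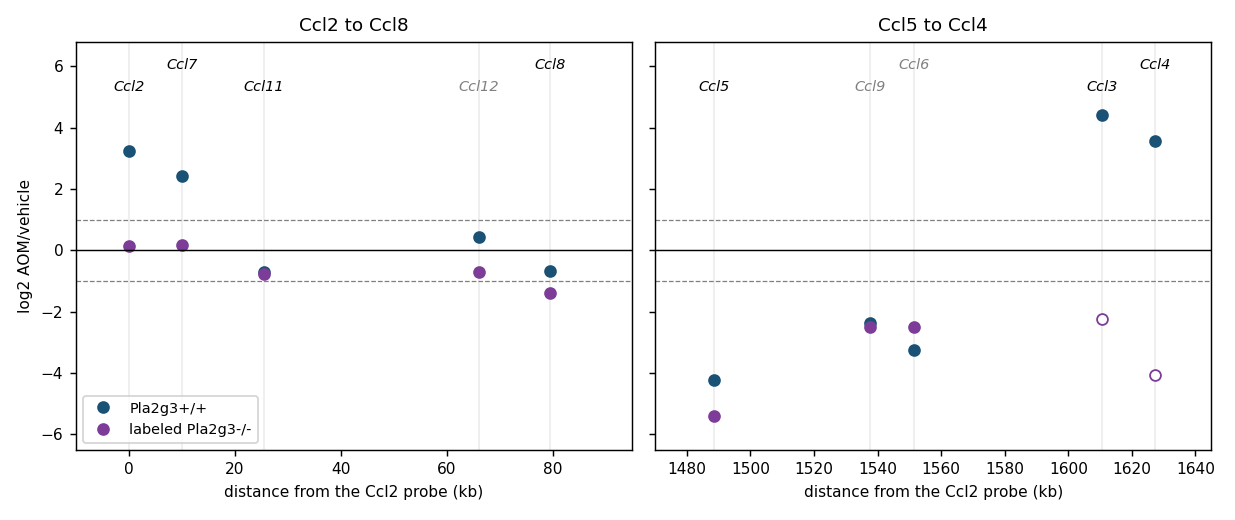
Log2 AOM/vehicle ratio in each genotype against distance from the *Ccl2* probe in kb for CC chemokine genes of the chromosome 11 clusters; members are named in black, other ligands in grey, open points are bounds (at or under the point) and dashed lines mark 2-fold. In *Pla2g3*+/+ *Ccl3* and *Ccl4* rise beside *Ccl9* and *Ccl6*, which fall.

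Of 13 other CC ligands listed, 10 had a probe named here, and 8 had a KO/WT value with vehicle. None of the 8 was past 2-fold, beside 3.19% of all genes. After AOM, 3 of 9 with a value were lower in the pool labeled *Pla2g3*-/- by the probe brightest in mean log2 signal over the arrays (2 with normexp and quantile normalization) and 0 higher. Over all genes, 12.8% were lower (7.5% with normexp and quantile normalization) and 15.1% higher. Other probes added calls, chosen here after their values were seen. Another *Ccl1* probe was lower, at a log2 ratio of -2.99 or below, with intensities of 151.9 and 5.15, while the probe used gave a log2 ratio of 0.35. The dimmest probe of *Ccl27a* was just past 2-fold lower, at a log2 ratio of -1.01, while its brighter probes gave -0.40 and -0.48. Other probes of *Ccl25* were higher by log2 ratios of 1.08 and 1.47, and another probe of *Ccl19* by at least 1.25. *Ccl24*, which encodes eotaxin-2, had relative signals of 0.0955 and 0.0661 with vehicle and 1.12 and 0.137 after AOM, again high in *Pla2g3*+/+ after AOM. It rose 11.7-fold there with AOM and was 8.19-fold lower after AOM in the pool labeled *Pla2g3*-/-. *Ccl17*, a CCR4 ligand like *Ccl22*, had relative signals of 0.114, 0.105, 0.484 and 0.174 and rose 4.25-fold with AOM in *Pla2g3*+/+. Lower with AOM in *Pla2g3*+/+ were 4 ligands, *Ccl6*, *Ccl9*, *Ccl25* and *Ccl19*, against 2 without scaling and 3 with quantile normalization alone or after normexp. Of all genes, 22.2% were lower in that comparison, 7.03% without scaling, 17.7% with quantile normalization alone and 9.64% after normexp. The probes of *Ccl25* disagreed, from a log2 ratio of -1.51 to 0.32, and those of *Ccl19* gave -0.82, -1.06 and, as a bound, -3.25 or lower.

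All 15 listed receptors and scavenging receptors had a probe, and 13 had a KO/WT value with vehicle. None was past 2-fold, beside 3.19% of all genes. After AOM, 7 of 15 were lower in the pool labeled *Pla2g3*-/- and 1 was higher, beside 12.8% and 15.1% of all genes. Their median log2 ratio was -0.999. The count lower was 8 without scaling and with quantile normalization (15.4% and 13.2% of all genes), and 3 with normexp and quantile normalization (7.5%). *Ccr2*, the receptor of CCL2 and CCL7, which is outside the rule for named genes and was added after its values were seen, had relative signals of 0.0669, 0.0863, 0.127 and 0.119. It differed between the AOM arrays by a log2 ratio of -0.09, whereas its ligands *Ccl2* and *Ccl7* differed by -2.57 and -1.87.

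*Ccr7*, which guides dendritic cells and naive lymphocytes to lymphoid tissue, was 14.1-fold lower in the pool labeled *Pla2g3*-/- after AOM, with relative signals of 0.475 and 0.0337. *Ccr6*, the receptor of the undetected *Ccl20*, was 5.94-fold lower, at 0.329 and 0.0553, and *Ccr9*, a gut-homing receptor, 3.16-fold. *Ccrl2* was 2.17-fold lower, and *Ccr3* and *Ccr1l1* at least 2.32-fold and 6.91-fold. *Ackr4*, a scavenger of CCL19, CCL21 and CCL25, was the receptor gene that was higher. Its relative signals were 0.779, 0.914, 0.0771 and 0.305, lowest in *Pla2g3*+/+ after AOM like *Ccl28*, and its other probe gave a KO/WT log2 ratio of 1.99 beside 1.98. *Ackr2*, a scavenger of inflammatory CC chemokines, rose 3.03-fold with AOM in *Pla2g3*+/+. *Ccr10*, the receptor of CCL28 on plasma cells, had relative signals of 0.0981, 0.0842, 0.0474 and 0.0392, lower on both AOM arrays. Its intensities before scaling, 63.3, 54.7, 62.1 and 45.8, lay closer together.

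**Figure D5:**
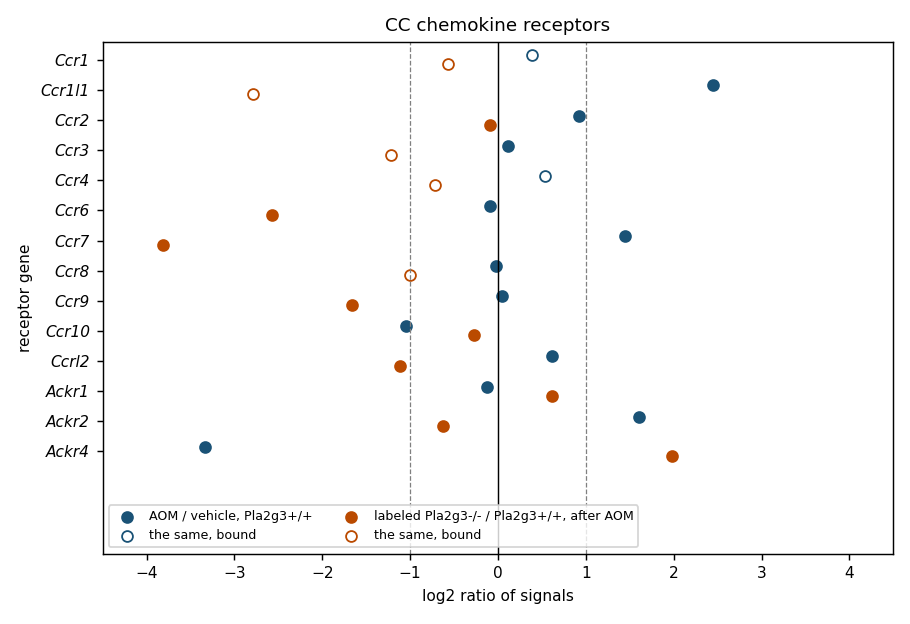
Log2 ratios of 14 CC chemokine receptor genes for AOM/vehicle in *Pla2g3*+/+ and for KO/WT after AOM, which share the *Pla2g3*+/+ AOM array; open points are bounds and dashed lines mark 2-fold. *Ccr7* is lowest in KO/WT, at -3.82, and *Ackr4* highest, at 1.98.

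NF-kB factors drive transcription of several inflammatory chemokines. Of 14 genes for NF-kB subunits, inhibitors and kinases, 13 had a value in KO/WT after AOM. Beside 12.8% of all genes, 1 of the 13 was past 2-fold lower in the pool labeled *Pla2g3*-/-. This was *Nfkbie*, an inhibitor of NF-kB and itself a target of it, with relative signals of 0.292, 0.295, 0.642 and 0.143. The median over the list was -0.21, and the others with a value stayed within 2-fold between the AOM arrays. With AOM in *Pla2g3*+/+, *Nfkbie* and *Ikbkb* were past 2-fold higher, where 15.0% of all genes were. That count of 2 of 14 depended on the scaling, with 8 without scaling, 3 with quantile normalization and 1 with normexp and quantile normalization. The shares of all genes higher were 44.6%, 17.5% and 10.2% under these settings.

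Markers of leukocytes that make or follow these chemokines also differed between the AOM arrays, where 12.8% of all genes were lower in KO/WT and 15.1% higher. Of 10 macrophage and monocyte genes, 8 were lower in KO/WT after AOM and 1 higher, with a median log2 ratio of -1.30 and summed relative signals of 34.6, 34.3, 39.8 and 26.6. Of 10 neutrophil genes, 7 were lower and 1 higher, with sums of 55.6, 54.7, 94.8 and 62.1. *Cxcr2*, *Fpr1* and *Mmp8* were not well above background in the pool labeled *Pla2g3*-/- after AOM. Mast cell genes were lower in 8 of 9 (sums of 2.01, 1.73, 31.8 and 1.71), and dendritic cell genes in 4 of 6 with a value, with 1 higher (0.729, 0.593, 2.41 and 0.424). With AOM in *Pla2g3*+/+, 15.0% of all genes were past 2-fold higher and 22.2% lower. Among macrophage and monocyte genes 8 of 10 were higher and 1 lower there, with a median log2 ratio of 1.21. A sum is weighted toward its brightest genes. Neutrophil genes were higher in 7 of 10 and lower in 0, and mast cell genes higher in 8 of 9 and lower in 1. Of 6 dendritic cell genes with a value, 1 was higher and 1 lower. In KO/WT after AOM with normexp and quantile normalization, the genes lower numbered 7 for macrophages, 5 for neutrophils, 6 for mast cells and 2 for dendritic cells. Of all genes, 7.5% were lower under that setting. *Ptprc*, carried by all leukocytes, had relative signals of 0.233, 0.153, 0.439 and 0.102. The fibroblast sum was 36.7, 41.3, 111 and 81.9. The part of cell content in the *Ccl2*, *Ccl3*, *Ccl4* and *Ccl7* values was not tested.

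By the shape of the 4 log2 signals, *Cxcl9* was nearest to *Ccl4* among 14720 genes well above background on all arrays, with a root mean square difference of 0.24 log2 units, followed by *Msln* (0.32), *Saa3* (0.48), *Rhox5* (0.59) and *Esm1* (0.86). *Cxcl9* encodes a chemokine of the CXC family induced by interferon-γ, and had log2 ratios of 0.24 and -7.42 in KO/WT with vehicle and after AOM, beside -0.06 and -7.66 or lower for *Ccl4*. For *Ccl11*, the flattest member, the nearest of 14719 genes were *Tmem192*, *Dbndd2*, *Arl16*, *Tspo2* and *Nqo2*, at 0.028 to 0.039 log2 units. *Ccl4* was not well above background on the AOM array labeled *Pla2g3*-/-, so its distances rest on 1 dim signal as it stands. With 4 arrays many genes share a shape, and this ranking is a description.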

How the data were processed

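Total RNA of colon, pooled within each of the 4 groups given by the sample labels, was measured on 4 one-color arrays of 1 slide. Per the file headers, the authors' spot intensity came from Agilent Feature Extraction 11.5.1.1, with background subtracted, the array detrended and low spots replaced by a surrogate, without scaling between arrays. For every spot the deposited files also hold a p-value of that software's comparison with background. Detection was taken from its flag for signals well above background. The deposited table holds a ratio, the authors' intensity over about the 75th percentile of its array, and served as an alternative.

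Here, control spots were left out, and the 75th percentile of each array was taken over all remaining spots, outliers included. Outlier spots were then left out, log2 intensities of replicate spots were averaged, and the log2 of that percentile was subtracted. Of 39423 probes, 31046 were named through a RefSeq table of GRCm38.p6, used for names only, and other genes were represented by their brightest probe. Depth has no counterpart on arrays, and their number limits the precision. The members, gene lists and tests were chosen with earlier results of these data known. Named genes were the members, *Pla2g3*, list genes past 2-fold in KO/WT after AOM or AOM/vehicle in *Pla2g3*+/+, and the 5 genes nearest in pattern to the members with the widest and the narrowest range.

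Tried as alternatives were median scaling, unscaled signals, quantile normalization, normexp with an offset of 50 before quantile normalization (limma 3.58.1 in R 4.3.3), no filter on dim probes, probes above background on both arrays, a floor of 0.01, the mean over probes, the dimmest detected probe, the deposited table, and thresholds of 1.5-fold and 4-fold. The ratio step was tested on simulated data. Python 3.11.15, pandas 2.3.3, numpy 2.4.6 and matplotlib 3.10.9 were used. Marker lists that are not discussed covered lymphoid follicles (3 of 5 genes lower in KO/WT after AOM) and endothelium (1 of 5 lower), beside 12.8% of all genes. Values of 1 receptor gene and of 1 B cell gene that enter the list counts and sums are not reported here.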

Additional observations from a re-analysis of the deposited data

Results flagged for a closer look

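*Ccl3* and *Ccl4* went past 2-fold in opposite directions with AOM in the genotypes, which is why they are listed. The log2 AOM/vehicle ratio of *Ccl3* was 4.42 in *Pla2g3*+/+ and -2.23 or lower in the pool labeled *Pla2g3*-/-, and that of *Ccl4* was 3.56 and -4.05 or lower. The difference was not tested, since each group had 1 array, and both signals in the pool labeled *Pla2g3*-/- after AOM were not well above background.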

How the results depend on the processing

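Of 32 member ratios, 27 kept their side of 2-fold under all 10 settings of scaling, background and probe choice. The exceptions were *Ccl8* and *Ccl5* in KO/WT, given above, and 3 ratios of AOM/vehicle in the pool labeled *Pla2g3*-/-: *Ccl3* (-0.65 with normexp and quantile normalization), and *Ccl7* (1.03) and *Ccl8* (-0.55) without scaling. No ratio past 2-fold changed sign. Without scaling, the median of all genes shifted by 1.01 in AOM/vehicle of *Pla2g3*+/+, by 0.82 in that of the pool labeled *Pla2g3*-/- and by -0.16 in KO/WT after AOM, and quantile normalization shifted the first by 0.16. Of 96 counts of members past the threshold, 88 stayed within 1.5 times. With vehicle, the members higher in KO/WT numbered 1 without scaling, with median scaling and at 1.5-fold. After AOM, those lower numbered 3 with only probes above background on both arrays and 3 at 4-fold. In AOM/vehicle, those lower numbered 4 at 1.5-fold in *Pla2g3*+/+ and 2 with only probes above background on both arrays in the pool labeled *Pla2g3*-/-, where 1 was higher without scaling.

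The median log2 ratio of the members depended on how dim probes were treated. With a floor of 0.01 it was 0.080 in KO/WT with vehicle, -0.65 in KO/WT after AOM, 0.00 in AOM/vehicle of *Pla2g3*+/+ and -0.39 in that of the pool labeled *Pla2g3*-/-. In KO/WT after AOM it was -1.75 without scaling, -1.19 with normexp and quantile normalization, -0.82 without a filter and -0.53 with only probes above background on both arrays. In AOM/vehicle of *Pla2g3*+/+ it was 1.001 with quantile normalization, 1.88 without scaling, 0.73 with normexp and quantile normalization and -0.58 without a filter, which brings in *Ccl20* and *Ccl22*. In the pool labeled *Pla2g3*-/- it was -0.95, -0.24 and -0.64 with the first 3 of these, -0.73 without a filter and -0.33 with only probes above background on both arrays. The floor of 0.01 also brings in *Ccl20* and *Ccl22*. The setting with only probes above background on both arrays leaves out *Ccl3* and *Ccl4* where they gave bounds. Beyond the genes added or left out, the cause of these shifts was not tested. No paired analysis was possible because each group has 1 array. *Ccl20* and *Ccl22* lay at the detection limit, and the AOM signals of *Ccl3* and *Ccl4* in the pool labeled *Pla2g3*-/- give bounds only.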
